A study of Mus musculus with 12 samples.

Results

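The genes described here are 10 targets of the transcription factor p53 or markers of cellular senescence, Cdkn1a, Cdkn2a, Mdm2, Ccng1, Trp53inp1, Phlda3, Zmat3, Bax, Sesn1 and Eda2r. They were chosen by name, and all 10 had a row among the 22416 genes counted in the epidermis of mouse back skin. Single-cell ribosome profiling sequences the short stretches of mRNA that ribosomes cover, so a count is a ribosome-protected fragment (footprint) and a level reflects mRNA amount and translation together. The old group held 3 female C57BL/6 mice of 22 to 26 months, called P662, P722 and P758 after their postnatal day. The young group held 3 females of the same strain, 56 to 60 days old, called P57, P59 and P60 in the same way. All animals received cycloheximide, which stalls ribosomes, by tail vein shortly before death, and live epidermal cells were sorted into 384-well plates, so every group carries that treatment. Plates of one postnatal day were taken as one animal, an assignment that the count of 3 animals per age in the study's description allows but that no label states outright.

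p53 is a transcription factor that is stabilised when DNA is damaged or a cell is otherwise stressed, and it raises transcription of genes that halt the cell cycle, promote apoptosis or feed back on p53 itself. Cdkn1a encodes p21, the cyclin-dependent kinase inhibitor that carries much of the p53 cell-cycle arrest, and it is also known in skin for its part in the withdrawal of keratinocytes from the cycle as they leave the basal layer. Cdkn2a encodes the INK4A and ARF proteins, whose gene is a widely used marker of senescent cells and aged tissue. Epidermal keratinocytes divide in the basal layer and differentiate as they move up, while T cells, melanocytes and hair follicle cells share the same sheet.

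Depth differed widely between animals. After wells under 100 counts were left out, 1906 of 1924 wells remained. Totals were 70549 counts in P662, 12886 in P722 and 896688 in P758, against 5230 in P57, 12371 in P59 and 2384294 in P60. Levels are given as CPM, the count scaled to the total of all counts in the same wells. A gene at 0 counts may still have a level, and a floor for it was set at 3 counts. The floor was 42.5 CPM in P662, 233 CPM in P722, 3.35 CPM in P758, 574 CPM in P57, 243 CPM in P59 and 1.26 CPM in P60. The exact 95% upper limit at 0 counts lies above it. Intervals in brackets are exact 95% intervals for counting error only. The basal and differentiated keratinocyte marker lists took 2.12% to 6.86% and 2.45% to 5.85% of the counts of every animal, and the melanocyte list was at 0 in 4 animals. Of 384 well barcodes, 383 occurred on more than 1 plate, so wells were identified by plate and barcode.

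Footprints of these genes were sparse. Over the 10 plates Cdkn1a had 475 counts in 282 wells, Sesn1 235, Mdm2 234, Phlda3 181, Trp53inp1 158, Ccng1 128, Zmat3 78, Bax 53, Eda2r 22 and Cdkn2a 4. These counts are not set against each other as levels, because the coding lengths of the genes were not used here. No count of any of the 10 genes was found in 1135 wells (59.5%), 1 gene was found in 481 wells (25.2%), and the most genes found in any well was 6, in 3 wells. Median depth was 554 counts in wells with none of them, 1277 in wells with 1 and 12508 in wells with 6. All 10 genes had a count in P758 and in P60, against 8 in P662, 7 in P722, 4 in P57 and 2 in P59.

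Cdkn1a lies on chromosome 17 of GRCm38.p6 (chr17:29090979-29100722). It had 15 counts in P662, 1 in P722 and 152 in P758, against 3 in P57, 2 in P59 and 302 in P60. In CPM these were 213 (119 to 351), 77.6 (1.96 to 432) and 169.5 (144 to 199) in the old animals, against 574 (118 to 1676), 162 (19.6 to 584) and 127 (113 to 142) in the young animals. The ages overlapped, and the highest level rested on 3 counts in a single well of P57. The old animals averaged 153 ± 69 CPM, against 287 ± 249 CPM for the young (SD, n = 3 per age), a difference of -134 CPM (exact two-sided permutation p = 0.7, the smallest possible being 0.1). Without P57 the difference turned to 9.08 CPM.

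**Figure D1:**
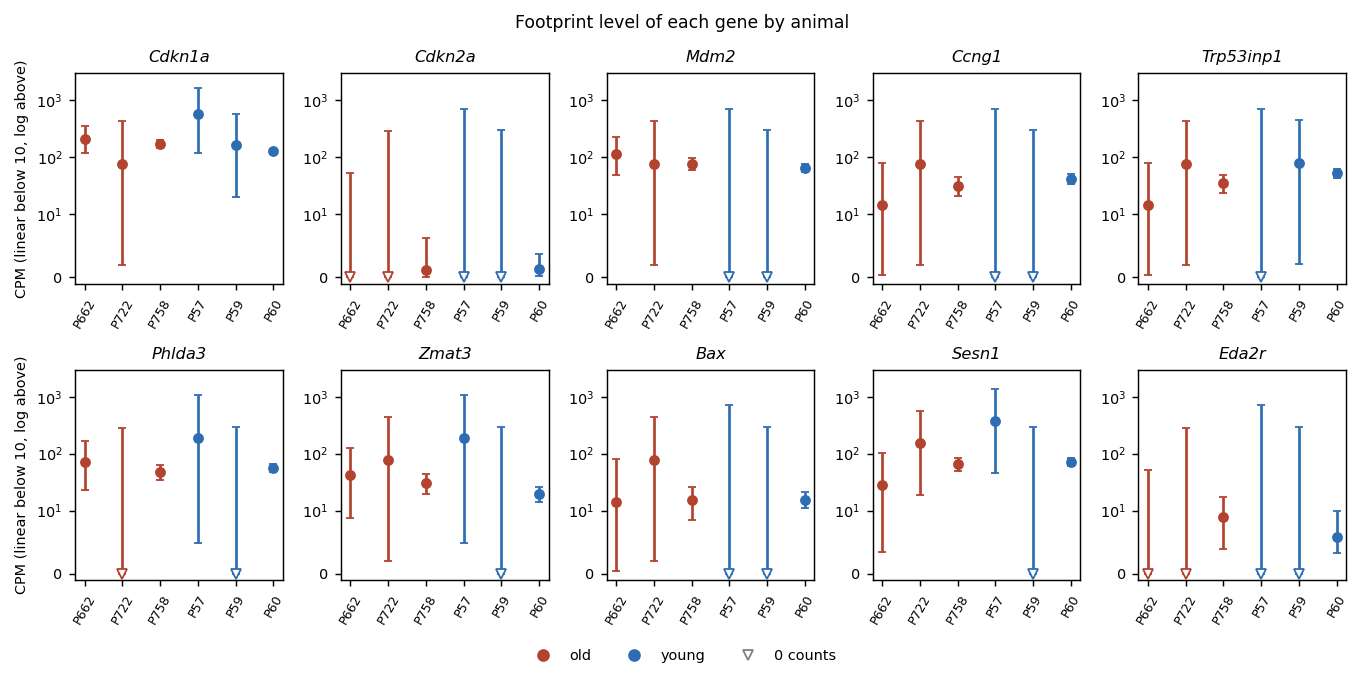
Footprint level of each of the 10 genes in CPM (linear below 10, logarithmic above) by animal, old animals at the left in red and young animals at the right in blue; bars are exact 95% Poisson intervals and open triangles mark 0 counts. The intervals are narrow only in P758 and P60, and Cdkn2a has counts in no other animal.

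Mdm2, the ubiquitin ligase that degrades p53 and is itself a p53 target, was the only one of the 10 genes whose ages did not overlap. It had 113 CPM in P662, 77.6 CPM in P722 and 75.8 CPM in P758, against 0 in P57, 0 in P59 and 65.8 CPM in P60. The value of P722 is 1 count, and the floors of P57 and P59 lie above all the old levels. Means were 88.9 ± 21.2 CPM at the old age and 21.9 ± 38 CPM at the young age (SD, n = 3 per age; exact permutation p = 0.1, the smallest possible). The young mean contains 2 zeros that depth alone allows. The share of all genes whose ages did not overlap is not given here.

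The remaining genes overlapped between the ages. Sesn1, a sestrin that restrains mTORC1 signalling, had 28.3, 155 and 65.8 CPM in P662, P722 and P758, against 382, 0 and 71.3 CPM in P57, P59 and P60 (exact permutation p = 0.8). Phlda3, a PH-domain protein that restrains Akt, had 70.9, 0 and 46.8 CPM in the old animals, against 191, 0 and 55.8 CPM in the young animals (exact permutation p = 0.7). In both genes the values outside P758 and P60 rest on 0 to 5 counts. Trp53inp1, a nuclear protein that promotes p53 activity, averaged 42.1 ± 32.4 CPM in old mice, against 44.3 ± 41 CPM in young mice (SD over 3 animals per age; exact permutation p = 0.9). Ccng1, cyclin G1, averaged 41 ± 32.8 CPM in old mice, against 13.7 ± 23.7 CPM in young mice (SD over 3 animals per age; exact permutation p = 0.3). Bax, the pro-apoptotic BCL2-family pore protein, averaged 35.8 ± 36.2 CPM in old mice, against 5.17 ± 8.96 CPM in young mice (SD over 3 animals per age; exact permutation p = 0.2). Zmat3, a zinc-finger RNA-binding protein, averaged 50.1 ± 24.6 CPM in old mice, against 70.2 ± 105 CPM in young mice (SD over 3 animals per age; exact permutation p = 1). In each of these 4 genes P57 and P59 had at most 1 count. Eda2r, a TNF-receptor family member that binds an ectodysplasin isoform, had 8 counts in P758 and 14 in P60 and none elsewhere.

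Cdkn2a was close to undetected at both ages. It had 1 count in P758, or 1.12 CPM (0.0282 to 6.21), and 3 counts in P60, or 1.26 CPM (0.259 to 3.68), each in a separate well. The other animals had 0 counts. The exact upper limits at 0 counts were 52.3 CPM in P662, 286 CPM in P722, 705 CPM in P57 and 298 CPM in P59. The single old count came from an outer bulge-like well, one of the hair follicle classes described below. Of the 3 young counts, 1 also came from an outer bulge-like well, 1 from a differentiated-like well and 1 from an unnamed well. A difference in Cdkn2a between the ages was not detectable at this depth.

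The edgeR quasi-likelihood test of age over the 6 animals kept 3.22% of the genes after its expression filter, and none of the 10 genes was among them. It called 0 genes, or 0% of those tested, with 25 at an unadjusted p under 0.05 (6 by DESeq2, which also called 0). With no filter on low counts all 10 genes were tested and none was called, where the share called among all genes was 0.699%. With a mean of at least 20 CPM, 8 of the 10 were tested and none was called, where the share among all genes was 0.670%. Of the wider lists, 15 immediate early genes, 5 of 33 other p53 targets, 2 of 12 genes of the p53 family and its regulators and 0 of 32 senescence and secretory genes passed the filter, and none was called. In the unfiltered edgeR fit 2 of 29 senescence and secretory genes were called, Cdkn2b, a cyclin-dependent kinase inhibitor next to Cdkn2a, higher in old animals by 1.80 on the log2 scale (adjusted p = 0.0318), and Mmp9, a matrix-degrading protease, lower at -2.70 (adjusted p = 0.0418). Cdkn2b had 2, 0 and 19 counts in P662, P722 and P758, against 0, 0 and 14 in P57, P59 and P60. Mmp9 had 0, 0 and 2 counts in the old animals, against 0, 0 and 34 in the young animals. With a mean of at least 20 CPM, edgeR called 1 of 9 such genes, Igfbp4, a binding protein of insulin-like growth factors, lower in old animals at -1.97 (adjusted p = 0.00789), with 2, 0 and 7 counts in the old animals against 1, 0 and 90 in the young animals. All 3 overlapped between the ages. The immediate early genes, which respond within minutes to stress and handling, took 26620 CPM in P662, 5277 in P722 and 14181 in P758, against 2294 in P57, 23119 in P59 and 4862 in P60.

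P758 and P60 hold 87.1% to 100% of the old counts and 97.9% to 100% of the young counts of the 10 genes, so they were also set side by side as 1 animal of each age, with no test. Cdkn1a was at 169.5 CPM in P758 and 127 CPM in P60, a ratio of 1.34 (1.09 to 1.63). By plate it was 169.9 and 169 CPM on the P758 plates, against 144, 111 and 119 CPM on the P60 plates, with no overlap. Trp53inp1 was lower in P758, at 34.6 CPM against 52 CPM in P60 (ratio 0.665, 0.433 to 0.992), but its plates overlapped, at 27.4 to 39.5 CPM in P758 and 37.3 to 72.5 CPM in P60. Zmat3 was at 30.1 CPM in P758 and 19.3 CPM in P60 (ratio 1.56, 0.933 to 2.56), and Ccng1 at 31.2 CPM in P758 and 41.1 CPM in P60 (ratio 0.76, 0.48 to 1.17). The intervals of both cross 1, and the plates of both do not overlap. Plates of the other 6 genes overlapped. The plates repeat 1 animal of each age, and the share of all genes whose plates do not overlap is not given here. Mdm2 had a ratio of 1.15 (0.853 to 1.54), Sesn1 0.923 (0.674 to 1.25), Phlda3 0.84 (0.579 to 1.2), Bax 1.01 (0.502 to 1.91) and Eda2r 1.52 (0.552 to 3.88). Among the 9 genes with at least 20 counts in the pair, 3 lay over 1.5 times apart and the median ratio was 1.01. Among all 10025 genes with as many counts, 2404 (24.0%) lay that far apart and the median ratio was 0.975. The 10 genes together took 479.5 CPM in P758 (435 to 527) and 455 CPM in P60 (428 to 483).

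Wells were grouped by clustering that left these 10 genes and the wider lists out, so the levels of the genes played no part in it. Of 12 clusters, 8 were named from marker lists, covering differentiated-like, basal-like (2 clusters), upper hair follicle-like, outer bulge-like, proliferating-like, T cell-like and melanocyte-like wells. The basal-like clusters were led by immediate early genes and by Igfbp3, and a cluster of 254 wells whose best list was basal stayed unnamed. Each basal-like name rested on 1 marker among the leading genes, Mt2 in the immediate early cluster and Cxcl14 in the Igfbp3 cluster. The unnamed cluster scored 0.431 on the basal list, against 0.45 and 1.01, but had no marker among its leading genes. The basal-like wells compared below are therefore those 2 named clusters alone. The melanocyte-like name held in P60 alone, with 140 counts of its markers in 9 wells, since the 11 wells of P758 in that cluster had 0, and its levels are left out. The thresholds for naming were set after the clusters had been seen. Differentiated-like and basal-like wells were compared in P662, P758 and P60, the animals with at least 5 wells of both.

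Cdkn1a footprints were concentrated in differentiated-like wells in both deep animals. In P758 the level was 318 CPM (253 to 394; 83 counts) in differentiated-like wells and 96.6 CPM (57.3 to 153; 18 counts) in basal-like wells, a ratio of 3.29 (1.96 to 5.82). In P60 it was 325 CPM (271 to 385; 130 counts) in differentiated-like wells and 54.1 CPM (37.4 to 75.6; 34 counts) in basal-like wells, a ratio of 6 (4.09 to 9.04). P662 had 7 counts in 23282 in differentiated-like wells and 0 in 6013 in basal-like wells. In those basal-like wells 1 count is already 166 CPM, above the basal-like level of P758 and of P60. The 0 of P662 therefore does not set its classes apart. The difference ran the same way on all 5 plates of P758 and P60. Differentiated-like wells had 282 and 345 CPM on Old 2 and Old 4 and 357, 273 and 324 CPM on Young 1, Young 3 and Young 9, against basal-like levels of 62.8, 114, 48.3, 65.5 and 50.0 CPM on the same plates.

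**Figure D2:**
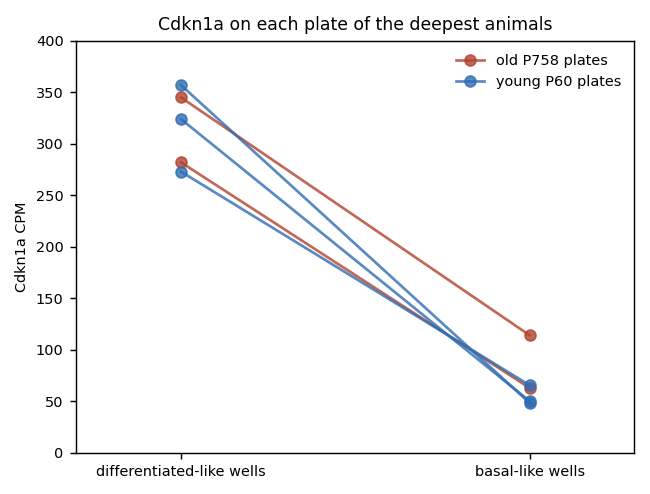
Cdkn1a level in CPM in differentiated-like wells (left) and basal-like wells (right) on each plate of P758 (red) and P60 (blue), with a line joining the values of a plate. All 5 plates lie at 273 CPM or more at the left and at 114 CPM or less at the right.

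In the edgeR fit over the 3 animals with animal as a block, Cdkn1a was higher in differentiated-like wells by 2.32 on the log2 scale (SE 0.353, adjusted p = 1.3e-09). Over the alternatives that tested it the difference ran from 1.97 to 2.75, with adjusted p between 3.69e-19 and 0.0183. Of 4132 genes tested 876 (21.2%) were called, 408 (9.87%) of them higher in differentiated-like wells. Of the 10 genes 4 were tested and Cdkn1a alone was called. Mdm2 had a log2 difference of 0.13 (adjusted p = 0.886), Phlda3 of 0.03 (adjusted p = 0.98) and Sesn1 of -0.38 (adjusted p = 0.624) in the same edgeR fit. The other 6 had too few counts for the test.

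A count of Cdkn1a was found in 58.1% of differentiated-like and 12.8% of basal-like wells of P758, and in 59.1% and 13.7% of those wells of P60. Differentiated-like wells were also deeper, with a median of 1886 counts against 1237 in basal-like wells of P758 and 2599 against 2379 in P60. At an equal depth of 500 counts the shares were 18.6% of differentiated-like and 4.89% of basal-like wells in P758, and 16.5% and 2.45% in P60. In T cell-like wells 1 count was found in each animal, or 58.8 CPM in P758 and 22.9 CPM in P60. The largest count in any well was 16, in a differentiated-like well of Young 1, and the level of its class in P60 was 325 CPM with that well and 312 CPM without it.

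The remaining classes had lower Cdkn1a values than differentiated-like wells in both animals, with overlapping intervals for T cell-like wells of P758 and for some unnamed clusters in both animals. Upper hair follicle-like wells had 104 CPM (33.9 to 244) in P758 and 152 CPM (99.3 to 223) in P60, which is 1.08 times (0.314 to 3.02) and 2.81 times (1.62 to 4.83) the basal-like level of the same animal. An unnamed cluster led by Krt2 and Notch3, with too weak a score to be named, had 206 CPM (137 to 297) in P758 and 234 CPM (176 to 304) in P60. A small unnamed cluster had 0 counts in 5 wells of P758 (0 to 1189 CPM) and in 14 wells of P60 (0 to 336 CPM). Proliferating-like wells had 44.1 CPM in P758 and 79 CPM in P60, and outer bulge-like wells 37.2 and 27.1 CPM, none of which differed from the basal-like level beyond counting error. Within the basal-like class the cluster led by immediate early genes had 132 CPM in P758 and 78.8 CPM in P60, and the other 72.3 and 51.9 CPM, with overlapping intervals. Immediate early genes took 2.53% of basal-like and 0.921% of differentiated-like counts in P758, and 0.57% and 0.253% in P60. Their part in the Cdkn1a levels was not tested.

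**Figure D3:**
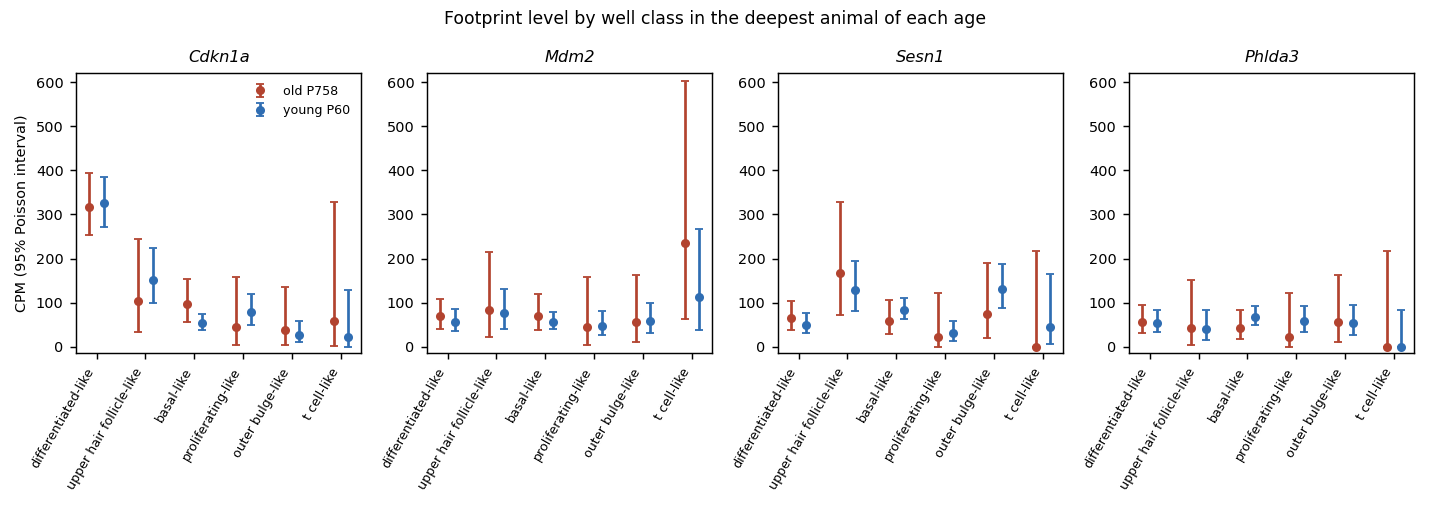
Level of Cdkn1a, Mdm2, Sesn1 and Phlda3 in CPM (linear axis) by well class, with P758 in red and P60 in blue; bars are exact 95% Poisson intervals. Cdkn1a stands at 318 and 325 CPM in differentiated-like wells, while the intervals of Mdm2 overlap across all classes drawn.

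For every other gene of the 10 with counts in both classes, the interval of the differentiated-like over basal-like ratio held 1 in P758 and in P60. In P60 that interval only just held 1 for Sesn1, at 49.9 CPM in differentiated-like and 84.3 CPM in basal-like wells (ratio 0.593, 0.336 to 1.01), and for Zmat3, at 32.5 CPM against 12.7 CPM (ratio 2.55, 0.98 to 7.1). In P758 the same ratios were 1.1 (0.487 to 2.6) for Sesn1 and 0.713 (0.213 to 2.38) for Zmat3. Mdm2 had 68.9 CPM in differentiated-like and 69.8 CPM in basal-like wells of P758 (ratio 0.987, 0.457 to 2.19), and 57.4 and 57.2 CPM in those wells of P60 (ratio 1, 0.568 to 1.74). Intervals of this width leave room for a difference of 1.5 times in either direction. Ccng1 had 19.1 CPM in differentiated-like and 37.6 CPM in basal-like wells of P758, and 22.5 and 41.3 CPM in those wells of P60, with intervals of the ratio that cross 1 in both. Sesn1 was lower in proliferating-like than in basal-like wells of P60, at 30.9 CPM against 84.3 CPM (ratio 0.367, 0.159 to 0.75). In P758 that ratio was 0.373 (0.00867 to 2.57), from 1 count. Upper hair follicle-like wells had 167 CPM of Sesn1 in P758 and 129 CPM in P60, and their intervals over the basal-like level cross 1. Mdm2 had 4 counts in T cell-like wells of P758 and 5 in those of P60, too few to set apart from basal-like wells.

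Detection of Cdkn1a in a well did not go with higher levels of the other genes. The other 9 together had 283 CPM in wells with Cdkn1a and 325 CPM in wells without it in P758 (ratio 0.87, 0.669 to 1.12), and 289 CPM and 351 CPM in P60 (ratio 0.823, 0.706 to 0.958). Mdm2 had a ratio of 1.2 (0.708 to 1.99) in P758 and 0.882 (0.621 to 1.24) in P60. Sesn1 was lower in wells with Cdkn1a, with a ratio of 0.464 (0.224 to 0.889) in P758 and 0.681 (0.477 to 0.959) in P60. Wells with Cdkn1a were deeper, at a median of 1879 against 790 counts in P758 and 3010 against 1099 counts in P60, and more of them were differentiated-like.

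The makeup of the wells differed between the deep animals. Differentiated-like wells gave 29.1% of the counts of P758 and 16.8% of those of P60, and held 54.6% of the Cdkn1a counts of P758 and 43% of those of P60. Within differentiated-like wells the P758 over P60 ratio of Cdkn1a was 0.979 (0.734 to 1.3), and within basal-like wells it was 1.79 (0.95 to 3.25). The basal-like wells of P758 were 67 of the cluster led by immediate early genes and 50 of the other, against 45 and 138 in P60, and the ratio was 1.68 (0.483 to 7.32) within the first and 1.39 (0.552 to 3.11) within the second. Stratified by the 12 clusters it was 0.995, against 1.34 over all wells; this ratio was added after the data had been seen. The stratified ratio has no interval, and whether the makeup of the wells has a part in the Cdkn1a ratio was not tested. With 1 animal of each age, age and animal cannot be told apart.

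**Figure D4:**
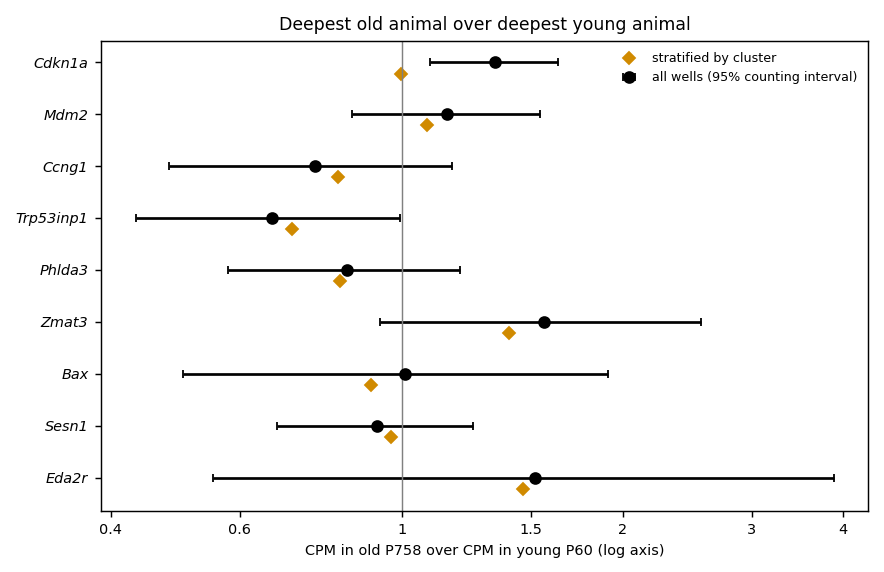
Ratio of the CPM in P758 to that in P60 (log axis) for the 9 genes with at least 20 counts in the pair; black circles are all wells with 95% counting intervals and orange diamonds are ratios stratified by cluster. The circle of Cdkn1a lies at 1.34 and its diamond at 0.995.

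Detection at an equal depth of 500 counts, in 472 wells of P758 and 807 wells of P60, gave Cdkn1a in 7.53% of wells of P758 and 5.17% of wells of P60, where the same wells without thinning gave 19.9% and 20.1%. Mdm2 was at 4.05% in P758 and 4.18% in P60, Sesn1 at 3.23% and 3.97%, and Trp53inp1 at 1.98% and 3.35%.

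The wider lists showed which p53 pathway genes moved with the class. Among 6 tested genes of the p53 family and its regulators, Ppm1d, a phosphatase that switches p53 signalling off, was higher in differentiated-like wells by 1.62 on the log2 scale (adjusted p = 0.014, edgeR; 0.0587 by DESeq2). Trp53 itself fell by 1.18 on the log2 scale in the same edgeR fit (adjusted p = 0.00617; 0.308 by DESeq2), with 91.9 CPM in differentiated-like and 161 CPM in basal-like wells of P758, and 79.9 and 229 CPM in those wells of P60. Trp63, the p53 relative that maintains basal keratinocytes, had a difference of -0.76 that did not pass in the main fit (adjusted p = 0.137, edgeR). Trp63 was called lower at Leiden resolution 0.5 and without centring per plate, each also in P662, P758 and P60 alone, and without P662. Usp7 at 0.42 (adjusted p = 0.377) and Atm at 0.14 (adjusted p = 0.877) did not pass in edgeR. Neither Ppm1d nor Trp53 was called by DESeq2 or without P758, and neither was tested without P60. Ppm1d was also lost at Leiden resolution 0.5 in the 3 animals (adjusted p = 0.0523, edgeR). The median over the 6 was 0.07, against -0.08 over all 4132 genes.

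Of 10 tested other p53 targets 1 was higher and 4 were lower in differentiated-like wells, where 9.87% of all tested genes were called higher and 11.3% lower. Perp, a desmosome-associated protein of stratified epithelia, was higher by 1.68 (adjusted p = 0.000529, edgeR), with 3379 CPM in differentiated-like and 977 CPM in basal-like wells of P758, and 4402 and 1991 CPM in those wells of P60. Thbs1, which encodes the matrix protein thrombospondin, fell by 6.62 on the log2 scale, and Igfbp3, a binding protein of insulin-like growth factors, fell by 2.33 (adjusted p = 5.69e-35 and 1.83e-08 in edgeR). Igfbp3 was also the first leading gene of a basal-like cluster, so its fall is against wells high in it. Plk2 fell by 1.25 and Btg2 by 0.87 on the log2 scale (adjusted p = 0.014 and 0.0307 in edgeR), and DESeq2 called neither (adjusted p = 0.371 and 0.641), which leaves 2 lower there. Without P758, Thbs1 alone of these 5 was called. Btg2 was also lost without P60 (adjusted p = 0.524, edgeR) and with no filter on low counts (adjusted p = 0.131, edgeR). Sfn, which encodes the keratinocyte protein stratifin, had a difference of 0.63 that did not pass in the main fit (adjusted p = 0.144, edgeR). Sfn was called at Leiden resolution 0.5, also in P662, P758 and P60 alone, without centring in those animals, and without P662. The median over the 10 was -0.33.

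Of 4 tested senescence and secretory genes, Lmnb1, the lamin whose loss marks senescent cells, fell by 1.75 on the log2 scale in differentiated-like wells (adjusted p = 0.0013, edgeR; 0.14 by DESeq2). Cdkn1b at -0.69, Rb1 at 0.93 and Ezh2 at -0.43 did not pass in the main fit (adjusted p = 0.154, 0.0625 and 0.568 in edgeR). Rb1 was called at Leiden resolution 0.5 and without centring, both in P662, P758 and P60 alone, and without P662. The median over the 4 was -0.56. Of 15 tested immediate early genes 11 were lower and none was higher in the main fit, where 11.3% of all tested genes were called lower. Among them were Zfp36 at -1.20, Egr1 and Jun at -1.17 and Junb at -1.04, while Fos at -0.86 did not pass (adjusted p = 0.0732, edgeR). Fos was called at Leiden resolution 0.5 and without centring, each also in P662, P758 and P60 alone, and without P662. At resolution 0.5 and without P662, 1 gene was called higher. Immediate early genes led a basal-like cluster that held 67 of the 117 basal-like wells of P758 and 45 of the 183 of P60. DESeq2 called 7 of the 15 lower, and 1 was called without P758 and 6 without P60 in edgeR. In the pair of deep animals Lmnb1 had 68 CPM in P758 and 204 CPM in P60, a ratio of 0.333 (0.251 to 0.435). It was not lower in P758 within differentiated-like wells, at 9 counts in 261291, against 8 in 400495 in P60. In basal-like wells Lmnb1 had 59 CPM in P758 and 105 CPM in P60. Proliferating-like wells gave 5.06% of the counts of P758 and 12.2% of those of P60. Whether the makeup of the wells has a part in the Lmnb1 ratio was not tested. Over all wells, Trp53 had a P758 over P60 ratio of 0.756 and Perp of 0.878. Btg2, which is both a p53 target and an early response gene, had a ratio of 6.42 (5.46 to 7.56), and 14 of the 16 immediate early genes were over 1.5 times higher in P758.

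**Figure D5:**
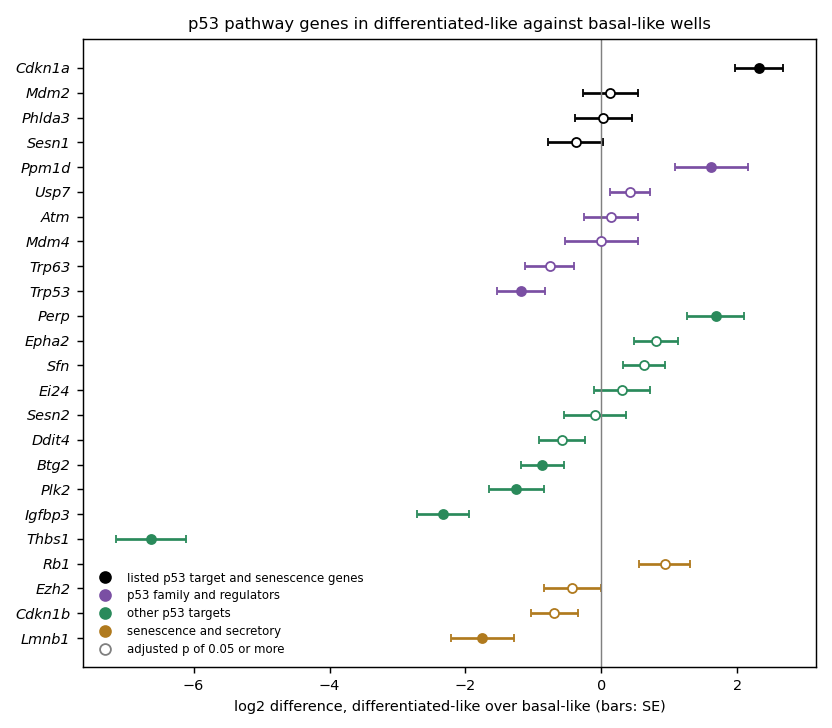
Log2 difference of differentiated-like over basal-like wells, with SE bars, for the tested p53 target and senescence genes (black), p53 family and regulators (purple), other p53 targets (green) and senescence and secretory genes (brown); filled circles have an adjusted p under 0.05. Cdkn1a (2.32) and Perp (1.68) lie at the right and Trp53 (-1.18) and Thbs1 (-6.62) at the left.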

How the data were processed

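The authors deposited whole-number counts of footprints per gene for each well, as the file headers and values show. Per the submitters' processing notes, fastp, Bowtie2, STAR, UMI-tools and featureCounts were used with GRCm38.p6. Versions and settings are not stated there. Strand, and reads shared by the INK4A and ARF transcripts of Cdkn2a, could not be separated. Zmat3 and Eda2r each overlap a gene that the files do not count.

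Wells with at least 100 counts were summed by animal, or by animal and well class. Totals of 5230 to 2384294 counts per animal set the precision. Wells were clustered with scanpy 1.11.5 (1500 variable genes, centred per plate, 15 components, 15 neighbours, Leiden resolution 1), with no doublet caller, since wells were sorted as single cells. A cluster was named when its best marker list scored at least 0.25, at least 3 markers were higher and at least 1 was among its 10 leading genes. Tests used edgeR 4.0.16 (quasi-likelihood, TMM, Benjamini-Hochberg adjusted p under 0.05) on animal sums, with DESeq2 1.42.0 and limma 3.58.1 as alternatives, and exact permutation over animals for single genes. The edgeR fits were tested on simulated data. Intervals were exact Poisson, Clopper-Pearson or conditional binomial.

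All 10 genes are given by name, and the genes of the wider lists with values are among the 5 with the most counts in each list or were called in a fit, in which case they were chosen after their values were seen. No gene of the 10 reached 1000 counts, so genes with a like pattern were not sought. The genes and lists were chosen with earlier results of these data known. A plate of Sca-1-negative cells from old and young skin, whose wells could not be assigned to an age, and a plate used to test ribonucleases entered no test.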

Additional observations from a re-analysis of the deposited data

Results flagged for a closer look

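Signal was found on the plates that entered no test. The plate used to test ribonucleases, from the same postnatal day as P758, had 28 counts of Cdkn1a in 128007, or 219 CPM (145 to 316), with 10 counts of Mdm2, 8 of Phlda3 and 4 of Sesn1. The Cdkn1a level was 1.29 times that of the P758 plates, with an interval of 0.83 to 1.94. The plate of Sca-1-negative cells, old and young mixed, had 4 counts of Cdkn1a in 17377.

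Single plates stood apart from the other 4 of their age in 7 of 20 sets of 5 plates. Chance flags about 1 in 20 sets of equally precise values, a rate that does not apply to plates of such unequal depth or to a set with 4 plates at 0, such as Cdkn2a in the old animals. Among young plates these were the highest values of Cdkn1a at 574 CPM, Sesn1 at 382 CPM and Zmat3 at 191 CPM, all on the plate of P57, which has 5230 counts, and of Cdkn2a at 4.68 CPM. Among old plates they were the highest values of Mdm2 at 232 CPM on Old 7, from 5 counts, Eda2r at 13.2 CPM and Cdkn2a at 1.88 CPM. Each flag on the P57 plate rests on 1 to 3 counts.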

How the results depend on the processing

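Of the recomputed values 126 were counted as unchanged, 18 moved further and 1 reversed. Unchanged meant within the counting interval, on the same side of a threshold or within 1.5 times of the count reported. For the Cdkn1a difference between old and young animals it meant the same sign alone, so -344 and -36.8 CPM are among the 126. The Cdkn1a difference between old and young animals ran from -214 to 9.08 CPM when each animal was left out, the positive value being without P57, and was -344 CPM with at least 500 counts per well and -36.8 CPM with wells weighted equally. The count of genes called by age was 111 without a filter, 45 where the mean had to reach 20 CPM, and 0 under the others. The count called between differentiated-like and basal-like wells was 497 with DESeq2, 232 at Leiden resolution 0.5, 124 without centring per plate and 1470 at resolution 0.5 in P662, P758 and P60 alone (added after seeing the data), and ran from 292 without P758 to 1420 without P662. At resolution 0.5 and without centring, 5 animals entered and Cdkn1a was not tested; it was called in P662, P758 and P60 alone. For P758 over P60, the ratio of Cdkn1a was 0.979 within differentiated-like wells, 1.79 within basal-like wells and 0.995 stratified by the 12 clusters. Within differentiated-like wells the ratio was 0.825 for Zmat3, 0.255 for Bax and 1.3 for Sesn1, and within basal-like wells it was 2.95 for Zmat3 and 0.241 for Bax. The Eda2r ratio ran from 0.467 without Old 4 to 2.24 without Old 2. The causes were not tested. Proliferating-like against basal-like wells gave values only, since P758 and P60 alone had enough wells, and its alternatives were not run. No paired analysis was possible because the old and young plates share no replicate numbers. A gene at 0 counts in P722, P57 or P59 has a floor of 233, 574 or 243 CPM.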
